A study of Mus musculus with 6 samples.

Results

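Bicarbonate and proton transport genes were examined in cultured cardiac fibroblasts (CFs) that carried or lacked a working *Charme* locus. The members were 5 of the 19446 genes in the table, namely *Slc4a2*, *Slc4a3*, *Slc4a4*, *Slc4a7* and *Car12*. They were chosen by gene symbol from the bicarbonate transporter family and the membrane carbonic anhydrases, at a time when the genotype differences of these libraries were already known. The difference between genotypes is therefore a description of these 5 genes. The adjusted p-values below are read from fits over the whole table and are no independent test of the members.

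*Charme* is a long non-coding RNA that mice express in heart and skeletal muscle. The study describes it as not expressed in adult CFs, and proposes that altered signals from CharmeKO cardiomyocytes act on these cells. The study compared wild type (WT) and CharmeKO CFs from mice of 5 weeks, and CharmeKO animals carry a polyadenylation signal inserted into the *Charme* locus. Per the study's methods the mice are C57BL/6J, cultures grow out of fragments of atrial tissue pooled from littermates, and both genotypes were kept in IMDM medium with serum on fibronectin. There were 3 libraries for each genotype, numbered 1 to 3. Nothing in the labels says which cultures the numbers stand for, so the p-values measure only the spread between these samples, and CFs that were sorted fresh from hearts were not analysed here.

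Cells make acid continuously and hold their internal pH by moving bicarbonate and protons across the plasma membrane. In most cells, sodium-coupled bicarbonate cotransporters of the SLC4 family bring bicarbonate in and so load base. The chloride/bicarbonate exchangers of the same family let bicarbonate out in exchange for chloride. Carbonic anhydrases interconvert carbon dioxide and bicarbonate, and the membrane-bound forms do this at the cell surface beside the transporters. In heart tissue the sodium-coupled carriers are known for recovering pH after an acid load, and the exchangers for recovering it after an alkaline load.

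The libraries held 38330019 to 46797446 reads assigned to genes. The table has 1 row without an Ensembl identifier, which the file pairs with no gene name. It held 5, 15 and 11 reads in WT libraries 1, 2 and 3 and 0, 6 and 3 reads in CharmeKO libraries 1, 2 and 3. The methods state that the *Charme* locus was added to the annotation, but since the row is not named, the targeted gene could not be checked. Fibroblast markers were present in every library. Their summed level ran from 1079530 to 2206400 normalised reads in WT and from 1439180 to 1744890 in CharmeKO, and most of it was collagen RNA. Of the 10 markers, 2 were higher and 3 lower in CharmeKO in all 3 pairs, against 16.4% and 14% of all genes tested. *Thy1* was among the lower ones, at 4602, 14705 and 29470 in WT libraries 1, 2 and 3 and 4485, 10398 and 2658 in CharmeKO. Its pair differences were -0.04, -0.50 and -3.47 on the log2 scale, so most of the difference was at number 3, and the groups overlapped. By real-time PCR, the study reports both lower *Thy1* and lower *Col1a1* in cultured CharmeKO CFs. In these libraries *Col1a1* was not lower, with a log2 difference of 0.16 in limma (SE 0.65). The CharmeKO library held 1.44, 0.94 and 1.03 times the WT level of *Col1a1* at numbers 1, 2 and 3. Endothelial and cardiomyocyte markers were low, with sums of at most 232 and 799 normalised reads. Libraries with the same number resembled each other across genotypes at numbers 1 and 2. CharmeKO library 3 was no more like WT library 3 than WT library 2. Over all genes tested, the replicate number accounted for 67.7% of the variance of log2 levels and the genotype for 10.6%. The replicate number has 3 levels and the genotype 2, which by itself favours the first share.

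*Slc4a4* encodes NBCe1, the electrogenic sodium-bicarbonate cotransporter. In WT libraries 1, 2 and 3 it stood at 1646, 344 and 803 normalised reads, and in CharmeKO libraries 1, 2 and 3 at 5315, 758 and 2504. The CharmeKO library was the higher one at each replicate number, but the genotypes overlapped, since CharmeKO library 2 lay below WT libraries 1 and 3. The same-numbered CharmeKO library held 3.23, 2.20 and 3.12 times the WT level. The means were 931 ± 660 in WT and 2859 ± 2299 in CharmeKO (SD, n = 3 each).

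The log2 difference of *Slc4a4* was 1.49 with an SE of 0.83 in limma, fitted to genotype alone on a log2 scale after adding 1 to each value, which understates the change of low genes. Its adjusted p was 0.9999, and limma called 0 of the 15948 genes tested (0% of the table), while 143 genes had an unadjusted p under 0.05. DESeq2 without the replicate number called 8 genes (0.0504%), none of them a member, and edgeR called 0. With the replicate number as a block the *Slc4a4* difference was again 1.49 and its SE fell to 0.15, and limma ranked it 1 of 15948 by unadjusted p, with an adjusted p of 0.80. DESeq2 with the block gave *Slc4a4* an adjusted p of 3.90e-10, the second smallest of its 64 calls (0.454% of 14092 genes), and edgeR with the block gave 0.84. The call thus rests on the tool as well as on the block.

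The range among libraries of one genotype was itself wide for *Slc4a4*. The highest WT library held 4.79 times the lowest, and the highest CharmeKO library held 7.01 times the lowest. Of the variance of its log2 level, 65.4% went with the replicate number, 33.7% with the genotype and 0.94% with neither. Without CharmeKO library 1 the log2 difference was 0.84, without WT library 2 it was 0.91, and without CharmeKO library 2 it was 2.24. In DESeq2 with the block, leaving out number 1, 2 or 3 in both genotypes gave differences of 1.39, 1.67 and 1.42, with adjusted p of 0.0075, 7.03e-09 and 4.39e-06.

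A log2 difference over 1 in each same-numbered pair was met upward by 17 genes, 0.107% of those tested, and *Slc4a4* was 1 of them. Among the 5 members it was the only one with such a difference, by the values that chose it.

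**Figure D1:**
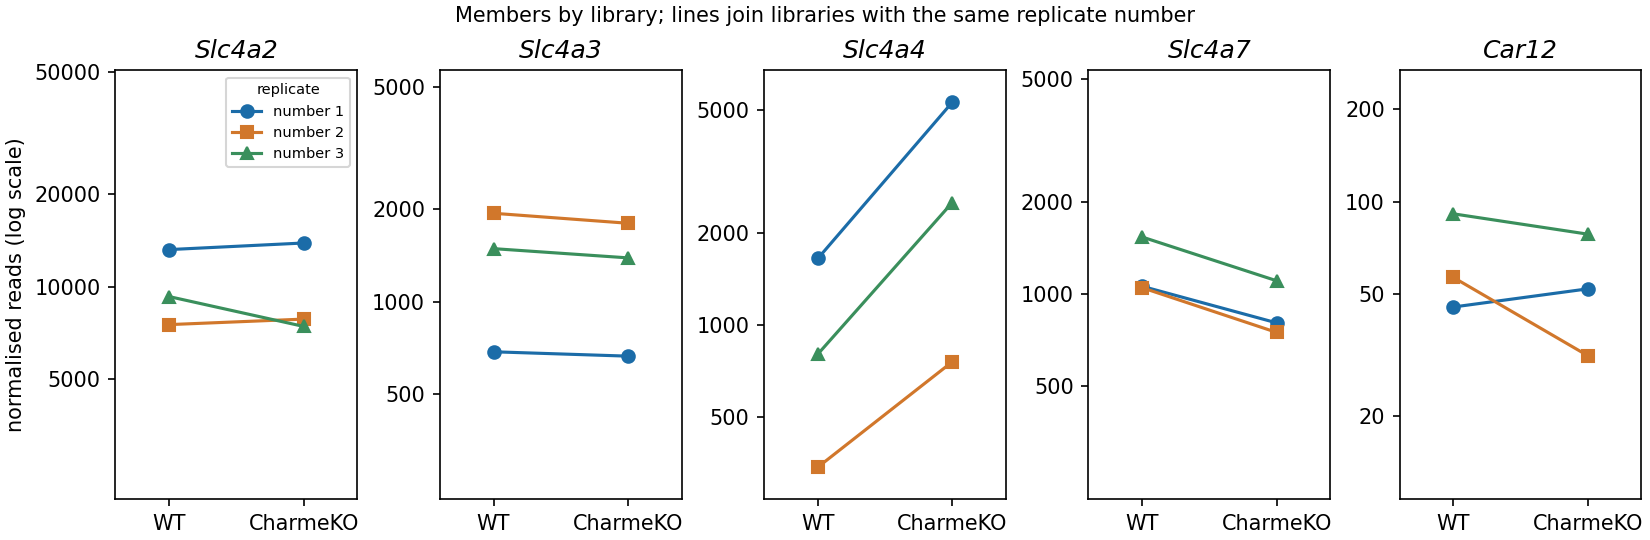
Normalised reads of the 5 members in each library, on log axes that all span the same ratio, with WT at the left and CharmeKO at the right of each panel and lines joining libraries of the same replicate number. *Slc4a4* is higher in CharmeKO along each line while the lines lie far apart, *Slc4a7* is lower along each line, and the other 3 genes differ mainly between replicate numbers.

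*Slc4a7* encodes NBCn1, the electroneutral sodium-bicarbonate cotransporter, which also brings bicarbonate in but moves no net charge. It stood at 1059, 1047 and 1533 normalised reads in WT libraries 1, 2 and 3 and at 805, 749 and 1104 in CharmeKO libraries 1, 2 and 3. Each CharmeKO library was below the WT library of its number, and the groups overlapped through CharmeKO library 3. The ratios to the same-numbered WT library were 0.76, 0.72 and 0.72. The means were 1213 ± 277 in WT and 886 ± 191 in CharmeKO (SD, n = 3 each).

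The log2 difference of *Slc4a7* was -0.45 (SE 0.24, limma adjusted p = 0.9999). With the block the SE was 0.096 and the adjusted p was 0.80 in limma and 0.22 in DESeq2, so *Slc4a7* passed the threshold in neither. Its replicates were the closest of the 5 members, with a highest to lowest ratio of 1.46 in WT and 1.47 in CharmeKO. Without WT library 3 the difference was -0.27.

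The 2 cotransporters therefore stood in opposite directions in each pair. Per kilobase of exon, the ratio of *Slc4a4* to *Slc4a7* was 2.19, 0.461 and 0.737 in WT libraries 1, 2 and 3. In CharmeKO it was 9.29, 1.42 and 3.19. The ratio was thus 4.25, 3.08 and 4.33 times higher at numbers 1, 2 and 3, with overlapping groups, and *Slc4a4* was the more abundant of the pair in all CharmeKO libraries but in WT library 1 alone.

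*Slc4a4* lies on the plus strand of chromosome 5 (chr5:88886818-89239653, GRCm38, GENCODE M21), and *Slc4a7* on the plus strand of chromosome 14 (chr14:14702279-14799940). The submitters' processing notes and methods do not name the build in a single way, so these positions belong to the annotation used here and not to the deposited table. *Slc4a4* is known to be transcribed from 2 starts, and the inner start gives the shorter kidney-type NBCe1 while the outer start gives the forms of most other tissues. RefSeq places a start after each of 2 windows of 250 bases that differ in base composition. The window at the outer start (chr5:88887010-88887259) has 44 CpG sites and 82.0% GC, and only 0.539% of the 32851 promoter windows hold as many or more. It is exonic in GENCODE M21 and is not printed. The window at the inner start (chr5:89027716-89027965) has 3 CpG sites and 48.8% GC, against a median of 6 sites over all windows. The RefSeq window of *Slc4a7* (chr14:14718534-14718783) has 2 CpG sites and 43.6% GC, and it stands at an inner start where 7 of the gene's 25 GENCODE transcripts begin within 50 bases. The inner *Slc4a4* window and the *Slc4a7* window are shown because these genes differ in opposite directions. They are given 5′ to 3′ on the plus strand from RefSeq GRCm38.p6, with CCAAT or TATAAA on either strand in capitals.
Slc4a4 inner start: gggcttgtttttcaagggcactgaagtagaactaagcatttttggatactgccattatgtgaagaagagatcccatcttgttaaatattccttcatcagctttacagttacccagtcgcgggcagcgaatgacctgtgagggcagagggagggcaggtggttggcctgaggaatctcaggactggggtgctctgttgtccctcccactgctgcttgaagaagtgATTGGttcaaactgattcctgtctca
Slc4a7 inner start: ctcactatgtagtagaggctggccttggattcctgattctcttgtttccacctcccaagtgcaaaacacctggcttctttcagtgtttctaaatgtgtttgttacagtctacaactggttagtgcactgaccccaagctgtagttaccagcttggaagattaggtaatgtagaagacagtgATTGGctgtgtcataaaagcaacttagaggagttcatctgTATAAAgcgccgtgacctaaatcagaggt
Both windows hold CCAAT on the minus strand, as 33.8% of all promoter windows do, and the *Slc4a7* window also holds TATAAA, as 12.4% do. ACGTG, the core of the hypoxia response element, was searched on both strands and is in neither window, while 16.6% of all windows have it. The gene-level values join the transcripts of all starts, so they do not tell which start the *Slc4a4* reads came from.

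*Slc4a2* encodes AE2, the widespread chloride/bicarbonate exchanger, and was by far the most abundant member. It stood at 13212, 7524 and 9284 normalised reads in WT libraries 1, 2 and 3 and at 13881, 7841 and 7422 in CharmeKO. Library 1 was the high one in both genotypes, and the groups overlapped fully. The log2 difference was -0.06 (SE 0.32, limma adjusted p = 0.9999), with pair differences of 0.07, 0.06 and -0.32. The genotype accounted for 0.73% of its variance and the replicate number for 93.3%. The sign of the difference turned without WT library 1 (0.16), CharmeKO library 2 (0.06) or CharmeKO library 3 (0.10). The gene overlaps 2 genes on the opposite strand, and the study counted reads by strand.

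*Slc4a3* encodes AE3, the exchanger best known from heart muscle and brain. Its values were 686, 1941 and 1489 normalised reads in WT and 664, 1801 and 1389 in CharmeKO, each in the order of libraries 1, 2 and 3. Every CharmeKO value was slightly below its WT counterpart, and library 1 was the low one in both genotypes, the reverse of *Slc4a2*. The log2 difference was -0.08 (SE 0.51, limma adjusted p = 0.9999), with pair differences of -0.05, -0.11 and -0.10. Of its variance 99.5% went with the replicate number. The sign turned without WT library 2 (0.23), WT library 3 (0.04) or CharmeKO library 1 (0.33).

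*Car12* encodes carbonic anhydrase 12, a membrane-anchored enzyme that works outside the cell. It was the scarcest member, with 46, 53 and 83 reads in WT libraries 1, 2 and 3 and 54, 32 and 90 in CharmeKO before normalisation. After it the values were 45.3, 56.6 and 91.2 in WT and 51.9, 31.5 and 78.3 in CharmeKO. All 6 libraries stood above the limit that a count of 0 allows (3 reads, 2.61 to 3.30 normalised reads, for counting error only). CharmeKO was higher at number 1 and lower at numbers 2 and 3, and the log2 difference was -0.28 (SE 0.50, limma adjusted p = 0.9999). It was 0.05 without CharmeKO library 2 and -0.01 without WT library 3.

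Counting the members by direction, 1 of 5 was higher in CharmeKO in all 3 pairs and 2 of 5 were lower, against 16.4% and 14% of all genes tested. For *Slc4a4* and *Slc4a7* this count restates the values that chose them, and nothing is read from it. In none of the 5 did the WT and CharmeKO libraries separate without overlap, which 2.14% of all genes did upward and 1.98% did downward.

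**Figure D2:**
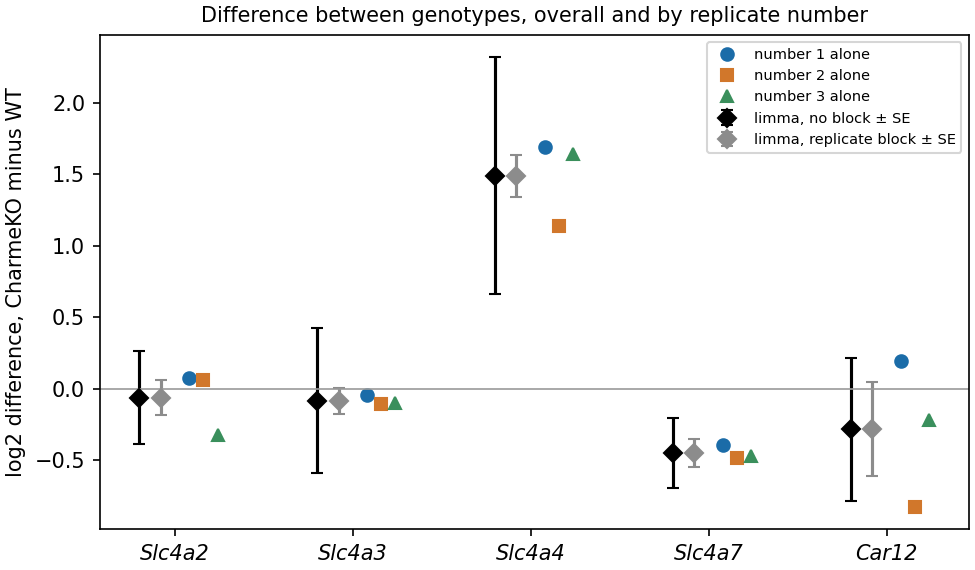
Log2 difference between CharmeKO and WT for each member, as the limma estimate without (black) and with (grey) the replicate block, each with its SE, beside the differences at replicate numbers 1, 2 and 3. The 3 differences of *Slc4a4* lie between 1.14 and 1.69 and those of *Slc4a7* between -0.48 and -0.40, while those of *Slc4a2* and *Car12* straddle 0.

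Levels per kilobase of exon allowed the members to be ranked. The mean over the 6 libraries was 1185 normalised reads per kilobase for *Slc4a2*, 175 for *Slc4a4*, 154 for *Slc4a3*, 69.0 for *Slc4a7* and 7.78 for *Car12*. *Slc4a2* ranged from 892 to 1668 and lay above each of the others in every library. *Slc4a4* ranged from 31.8 to 491 and *Slc4a3* from 77.3 to 226, so these neighbours did not differ beyond their spread. *Slc4a7* ranged from 49.3 to 101, which overlapped with both ranges, although *Slc4a3* was above *Slc4a7* in every library. *Car12*, at 4.14 to 12.0, was below the other 4 in every library.

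*Slc4a4* made up 7.92, 2.49 and 4.95% of the summed per-kilobase level of the *Slc4* genes in WT libraries 1, 2 and 3, and 21.2, 5.42 and 16.8% in CharmeKO. The exchangers *Slc4a2* and *Slc4a3* together made up 86.8, 88.7 and 86.0% in WT. In CharmeKO they made up 75.4, 89.0 and 76.5%, so the exchangers held a smaller share at numbers 1 and 3 and about the same share at number 2. In every library, then, exchanger RNA was the larger part of the family. *Slc4a11* was the most abundant *Slc4* gene beyond the members, and *Slc4a8* was low. The values of *Slc4a5*, *Slc4a9* and *Slc4a10* reached at most 6.41 normalised reads, and these genes failed the filter on low values.

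**Figure D3:**
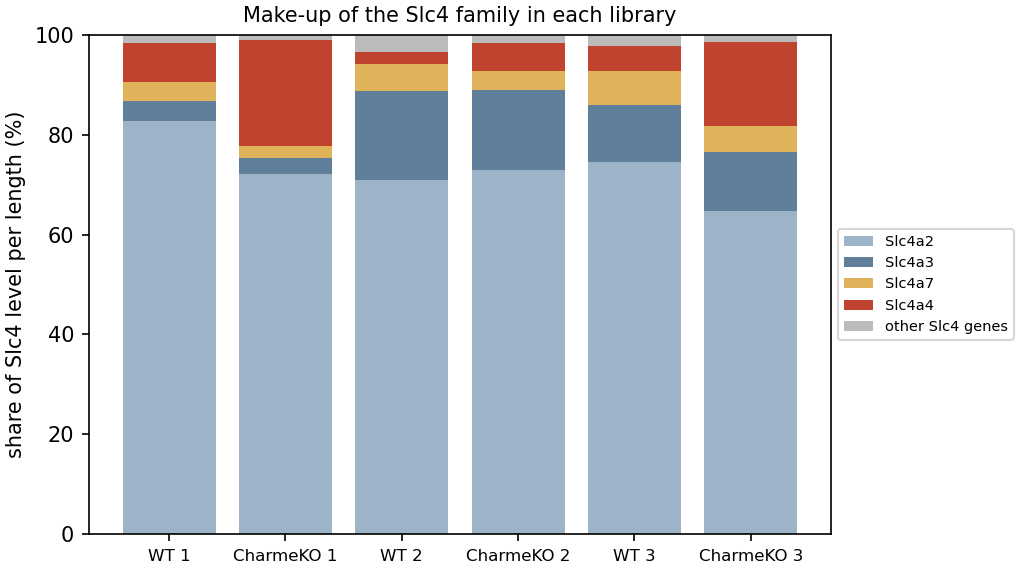
Share of each gene in the summed per-kilobase level of the *Slc4* genes, in percent, for each library, with the libraries of 1 number side by side. *Slc4a2* fills most of each bar, and the *Slc4a4* segment is wider in CharmeKO at each number, up to 21.2%.

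The members also differed in how they varied together. Over the 6 libraries, log2 levels of *Slc4a2* and *Slc4a3* had a Pearson r of -0.95, and those of *Slc4a7* and *Car12* an r of 0.85. *Slc4a4* had an r of 0.63 with *Slc4a2*, -0.79 with *Slc4a3* and -0.27 with *Slc4a7*. All 6 points share the replicate numbers that dominate the levels, so these are descriptions.

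For each member the 3 genes of most similar pattern were taken among 11583 genes with a mean of at least 100 normalised reads. *Slc4a4* was most like *Inppl1* (r = 0.99), *Psmd3* (0.98) and *Med29* (0.98). Their pair differences were small beside its own, at 0.13 to 0.32 for *Inppl1*. *Slc4a7* was most like *Zfp955a* (0.995), *Epn2* (0.99) and *Klhl9* (0.98). For *Slc4a2* they were *S100a16*, *Ufm1* and *Pdcd10*, for *Slc4a3* they were *Kdm7a*, *Amt* and *Eif4ebp2*, and for *Car12* they were *Xylt1*, *Pkn3* and *Ammecr1l*. An r over 0.95 was found with 403 genes for *Slc4a2* and 341 for *Slc4a3*, but with 37 for *Slc4a4*, 27 for *Car12* and 17 for *Slc4a7*.

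The wider set of pH-regulating genes held 96 symbols in 8 lists, of which 79 were in the table and 73 were tested. limma and edgeR called none of them, and DESeq2 with the block called 2 upward, *Slc4a4* and *Slc9a3r1*, and 0 downward, against 0.454% of all genes called in either direction. The first of these is a member whose difference was known when it was chosen. *Slc9a3r1* encodes NHERF1, a scaffold that anchors transporters beneath the membrane. It stood at 1755, 3804 and 2632 normalised reads in WT libraries 1, 2 and 3 and at 2386, 6743 and 5058 in CharmeKO. Its log2 difference was 0.74 in limma (SE 0.45) and its adjusted p in DESeq2 with the block was 0.013. CharmeKO was higher at each number and the groups overlapped.

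Apart from the members, 68 of these genes were tested, and their median log2 difference was 0.02, against 0.00 over all genes. Of the 68, 10 were higher in all 3 pairs and 7 were lower, which is 14.7% and 10.3%, close to the shares of all genes. *Slc9a8*, a sodium/proton exchanger of internal membranes, differed by -0.09 on the log2 scale (SE 0.18), with 1 of 3 pairs higher.

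*Car13* and *Car5b*, the carbonic anhydrases of the cytosol and of mitochondria with the most reads, differed by 0.02 and -0.28 on the log2 scale, with 1 of 3 pairs higher in each. *Slc26a2*, a sulphate transporter, differed by -0.24 and *Slc26a11* by 0.33, the first lower and the second higher in all 3 pairs. *Bsg*, the chaperone of the lactate carriers, and *Slc16a3*, which exports lactate with a proton, differed by -0.10 and -0.29. Among the regulators, *Wnk1* differed by -0.35 and *Ahcyl1*, which encodes the NBCe1 partner IRBIT, by -0.55. *Hvcn1*, a proton channel, and *Asic3*, an acid-sensing ion channel, differed by -0.20 and -1.24. None of these passed the threshold in limma or in DESeq2 with the block.

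The vacuolar proton pump, which acidifies lysosomes, was the longest list, with 21 genes tested. Of these, 5 were higher in all 3 pairs and 0 lower, against 16.4% and 14% of all genes tested, and nothing is read from this count. The median difference was 0.06. Its most abundant genes, *Atp6ap1* and *Atp6v1a*, differed by 0.05 and -0.14. WT and CharmeKO libraries separated without overlap for 3 of the 68 genes, with 3 lower and 0 higher in CharmeKO, against 1.98% and 2.14% of all genes tested. They were *Slc4a11*, *Car2* and *Wnk1*, of which the first pair were named after their values were seen.

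**Figure D4:**
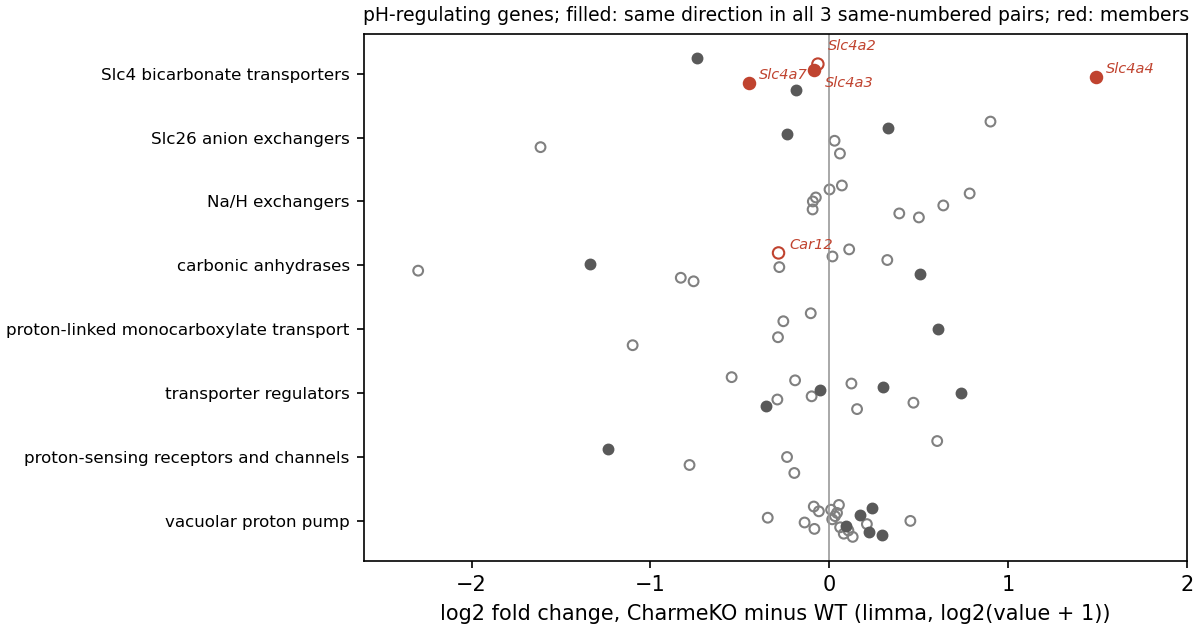
Log2 fold change between CharmeKO and WT (limma, log2(value + 1)) of the 73 tested pH-regulating genes in 8 lists, where filled points have the same direction in all 3 pairs and members are red. *Slc4a4*, at 1.49, lies farthest to the right of all points, and most genes of the proton pump lie near 0.

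Markers of other cell types or of CF activation moved with the genotype or with the replicate number beside these results. Contractile genes on the smooth muscle list, such as *Acta2*, are also genes of myofibroblasts, the activated state of CFs. After stimulation, the study found fewer cells positive for αSMA, the *Acta2* protein, in CharmeKO cultures than in WT. In bulk samples, fewer cells of a type, another state of the CFs and less RNA per cell cannot be told apart. Of 10 smooth muscle and pericyte markers, 8 were lower in CharmeKO in all 3 pairs, against 14% of all genes tested. DESeq2 with the block, the fit that called *Slc4a4*, called 2 of the 10 lower, *Actg2* (adjusted p = 8.51e-07) and *Myh11* (adjusted p = 0.000603). The summed level of the 10 was 138831, 28140 and 241453 normalised reads in WT libraries 1, 2 and 3. In CharmeKO it was 131529, 8238 and 28802. *Abcc9* was at 0 in CharmeKO library 3, but WT library 3 held only 6 reads of it. *Rgs5* was higher in CharmeKO library 3 than in WT library 3, at 75.7 against 51.6 normalised reads. Mesothelial and epithelial markers summed to 9894 and 10055 in WT and CharmeKO library 1, and to between 709 and 2525 in the others. Library 1 had the most *Slc4a4* within each genotype. The lowest sum was in CharmeKO library 3, where *Slc4a4* stood at 2504, above WT library 1 at 1646. Macrophage markers summed to 1696 to 7966 in WT and 725 to 17186 in CharmeKO. In CharmeKO library 3 *Ptprc* was at 0, but other macrophage markers were present. *Csf1r* stood there at 330 and *Lyz2* at 278 normalised reads, against 358 and 1012 in WT library 3. The part of these markers in the *Slc4a4* and *Slc4a7* differences was not tested.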

How the data were processed

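RNA of 3 WT and 3 CharmeKO cultures was sequenced as directional poly(A) libraries. The authors aligned reads with STAR, counted them by strand per Ensembl gene and deposited a signal per gene, namely reads divided by DESeq2 size factors. STAR and DESeq2 are credited to the submitters' processing notes, and their versions were not given in the sources used here. Whole reads were recovered for 100% of 116676 values (tolerance 1e-06). A read was worth 0.87 to 1.10 units.

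The main test was limma 3.58.1 (R 4.3.3), fitted to log2(value + 1) with the variance allowed to follow the mean level. Genes needed 10 reads in 2 libraries, and p was adjusted by Benjamini-Hochberg with a threshold of 0.05. edgeR 4.0.16 (quasi-likelihood) and DESeq2 1.42.0 were run on the recovered reads. The scripts were tested on simulated data.

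The replicate numbers come from the sample titles. Deviations of same-numbered libraries correlated at 0.76, 0.51 and 0.22, so the numbers were taken to pair the libraries, although CharmeKO 3 correlated as much with WT 2 (0.22). Other pairings gave -0.64 to -0.08. Deviations were taken from the mean of each genotype, which by itself draws other pairings below 0 where same-numbered ones lie above it.

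The members and gene lists were chosen with earlier results of these data known. Genes named from each pH list were the 2 with the highest mean and any gene called by limma, edgeR or DESeq2. For each member, the 3 most correlated genes with a mean of at least 100 were also named. A gene that the rule names is not reported here. Promoter windows came from RefSeq GRCm38.p6, and lengths from GENCODE M21, matched by identifier.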

Additional observations from a re-analysis of the deposited data

How the results depend on the processing

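Against 0 genes called by limma, DESeq2 called 8, and 64 with the replicate block (26 higher, 38 lower). limma and edgeR with the block called 0, although 857 genes then had an unadjusted p under 0.05 in limma, against 143 without it. Other pseudocounts, filters and scalings called 0. Leaving out 1 library, or in DESeq2 with the block 1 pair (chosen after seeing the data), gave 0 to 145 genes, with 145, 12 and 86 without pairs 1, 2 and 3. The same fits gave log2 differences of 0.84 to 2.24 for *Slc4a4*, -0.62 to -0.27 for *Slc4a7*, -0.35 to 0.16 for *Slc4a2*, -0.52 to 0.33 for *Slc4a3* and -0.60 to 0.048 for *Car12*. The sign thus turned for the last 3 genes (for *Slc4a2* also without pair 3, at 0.057), and the cause was not tested. Beyond these fits, all 5 members kept their direction, and the block changed the call of *Slc4a4* alone, in DESeq2 (adjusted p = 3.90e-10). With 32 to 90 reads per library, *Car12* carries the largest counting error of the members.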

Other observations

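*Slc4a11*, which encodes a proton-conducting relative of the bicarbonate carriers, stood at 130, 187 and 151 normalised reads in WT libraries 1, 2 and 3 and at 107, 88.5 and 81.8 in CharmeKO, a log2 difference of -0.74 (SE 0.31, limma adjusted p = 0.9999). *Car2*, the main cytosolic carbonic anhydrase, was scarce, at 11.8, 11.7 and 14.3 in WT and 7.69, 2.95 and 3.48 in CharmeKO. Both were named after their values were seen.

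Carbonic anhydrases 9 and 12 are known hypoxia-response genes, so a list of 20 such genes was read beside *Car12*. Of these, 1 was higher in all 3 pairs and 0 were lower, against 16.4% and 14% of all genes tested, with a median log2 difference of -0.30. The sign depended on the pair. Every gene of the list was higher in CharmeKO at number 1, and every one except *Ddit4* was lower at number 3. For *Eno1* these pair differences were 0.16 and -1.07. Its most abundant genes, *Aldoa* and *Eno1*, differed by -0.07 and -0.40. Neither passed the threshold.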
